A study of Mus musculus with 25 samples.

Results

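The genes of voltage-gated sodium channels, voltage-gated calcium channels, the sodium leak channel Nalcn and the TRP channels were examined in 25 single cells picked from a hypothalamic block of the mouse that held the arcuate nucleus with the median eminence. They were chosen by gene symbol (Scn, Cacna1, Cacna2d, Cacnb, Cacng, Nalcn, Trpa, Trpc, Trpm and Trpv names). The symbol rule itself used no measured value, but it was set with earlier results of these data known. The rule matched 62 of 30903 symbols in the table, each on a single row. Tissue of 2 male mice, on average 63 days old, was pooled; the animals were RIP-Cre, that is, a rat insulin promoter drives Cre recombinase, on a (C57BL/6 x DBA)F2 background. A Cre-dependent virus (AAV-loxSTOPlox-GFP) marked cells with green fluorescent protein, and GFP-positive cells were picked by hand from papain-digested tissue and sequenced with Smart-Seq2. They are 1 group and 1 pooled sample, the labels do not say which mouse gave which cell, and no untreated or GFP-negative cells are among them. Cells are therefore not replicates, no test between groups was possible, and no p-value is given. Cell numbers are those of the sample titles.

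Sodium and calcium channels of this family are built around a large pore-forming subunit, alpha for sodium and alpha1 for calcium channels, which opens when the membrane depolarises. Smaller subunits set how much channel reaches the membrane and how it gates: beta subunits for sodium channels, and beta and alpha2delta subunits for calcium channels. Most gamma proteins named Cacng act instead as auxiliary proteins of AMPA-type glutamate receptors and are known as TARPs. Nalcn carries a steady leak of sodium that holds neurons near threshold, and TRP channels are cation channels opened by lipids, receptors, temperature or calcium. In the arcuate nucleus TRPC channels are known for carrying slow depolarising currents after hormone receptors are engaged.

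Levels are RPKM, reads scaled to gene length and to the reads of the cell, which is meant to let long and short genes be set side by side. The gene lengths that the authors used are not known, so rankings between long and short genes hold for RPKM as listed. The word counted is used of a gene that reached 10 RPKM in that cell. Because these genes are long, from 1.25 kb of exon (Cacng1) to 25.2 kb (Cacna1e), that level corresponds to an estimated 22.4 to 453 reads at the median depth of 1796000 reads per cell (range 887000 in cell 9 to 2997000 in cell 11). Intervals of shares are 95% intervals by the exact Clopper-Pearson method, with an upper bound of 13.7% for 0 of 25 cells; the simpler limit of 3 counts gives 12%. Both reflect nothing but the counting of few cells, and reads without molecular identifiers are not independent molecules. A value of 0 does not show that a gene was silent: the general transcription factor gene Tbp was listed at 0 in 11 cells and the RNA polymerase II gene Polr2a in 2. All 25 cells held at least 7 of 10 neuronal markers at 10 RPKM, and none held more than 1 of 6 markers of astrocytes and tanycytes, of 6 of oligodendrocytes and their precursors, of 6 of microglia or of 6 of vessels. No 2 cells had identical columns.

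The coding sequences of the sodium channel alpha genes bear on how far their values can be separated. Scn1a, Scn2a1, Scn3a and Scn9a lie in a cluster on chromosome 2, in the order Scn3a, Scn2a1, Scn1a, Scn9a and then Scn7a, while Scn8a is on chromosome 15. Some pairs are identical over long runs of coding sequence (GENCODE M21, GRCm38). Of 1891 pairs among the 62 coding sequences, 6 share an exact run of at least 100 bases, and these are the 6 pairs among Scn1a, Scn2a1, Scn3a and Scn9a. The longest, 188 bases, is shared by Scn1a and Scn2a1. Scn3a and Scn9a share a run of 184 bases, and Scn1a and Scn3a, like Scn2a1 and Scn3a, a run of 143 bases. A read that falls wholly inside such a run cannot be told apart between the genes. Neither the read length nor the handling of reads that map to several places is given in the sources used here, so low values of these 4 genes beside a high one are uncertain. Among calcium channel genes the longest shared run was 68 bases (Cacna1g and Cacna1i).

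Of the 62 genes, 44 (71.0%) were counted in at least 1 cell, where 42.7% of all symbols were, and 10 (16.1%) in at least 13 cells, close to the 13.5% of all symbols. The remaining 18 reached 10 RPKM in no cell, and 10 of these were listed at 0 throughout (16.1%, against 47.1% of all symbols). Among the genes counted in at least 1 cell, the median was 5.5 cells for these channels and 7 cells for all 13209 such symbols. Among the 10 widespread genes were the sodium channel genes Scn2a1, Scn3a, Scn9a, Scn2b and Scn3b, the calcium channel genes Cacna1b, Cacnb1 and Cacnb3, and Trpv2. A cell held a median of 13 of the 62 genes, from 5 in cell 1 to 23 in cell 24. This number had a correlation of r = -0.15 with the depth of the cell and of r = 0.17 with the number of all genes counted in it (25 cells from 1 pool, given as a description).

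**Figure D1:**
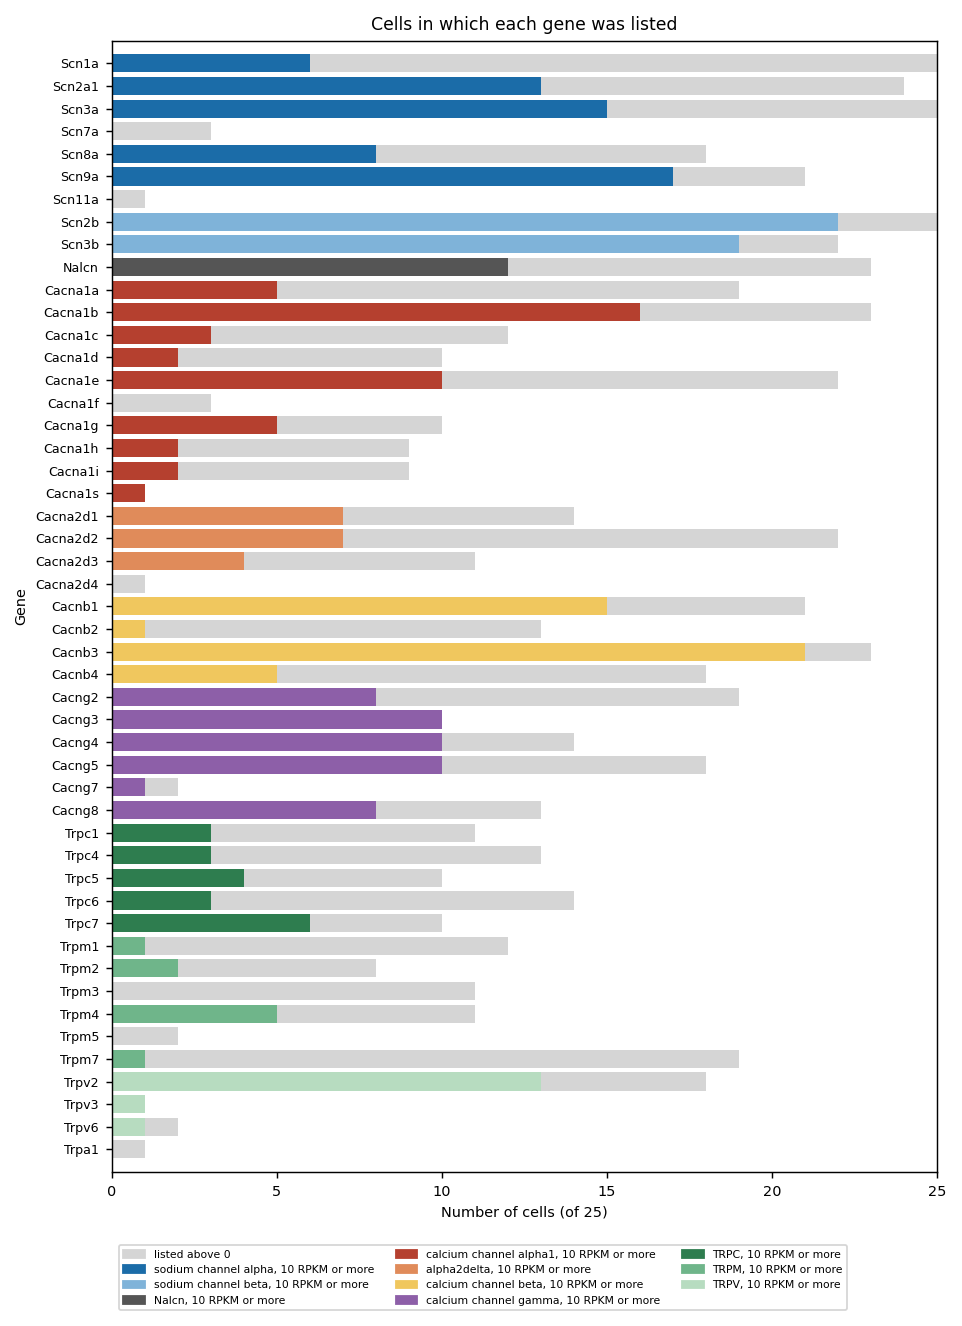
Number of cells (x axis, of 25) in which each gene (y axis) was at 10 RPKM or more (coloured by subfamily) and above 0 (grey); the 10 genes listed at 0 in every cell and those not reported here are left out. Scn2b and Cacnb3 reached 10 RPKM in 22 and 21 cells, while Trpm7 was above 0 in 19 cells and reached 10 RPKM in 1.

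**Figure D2:**
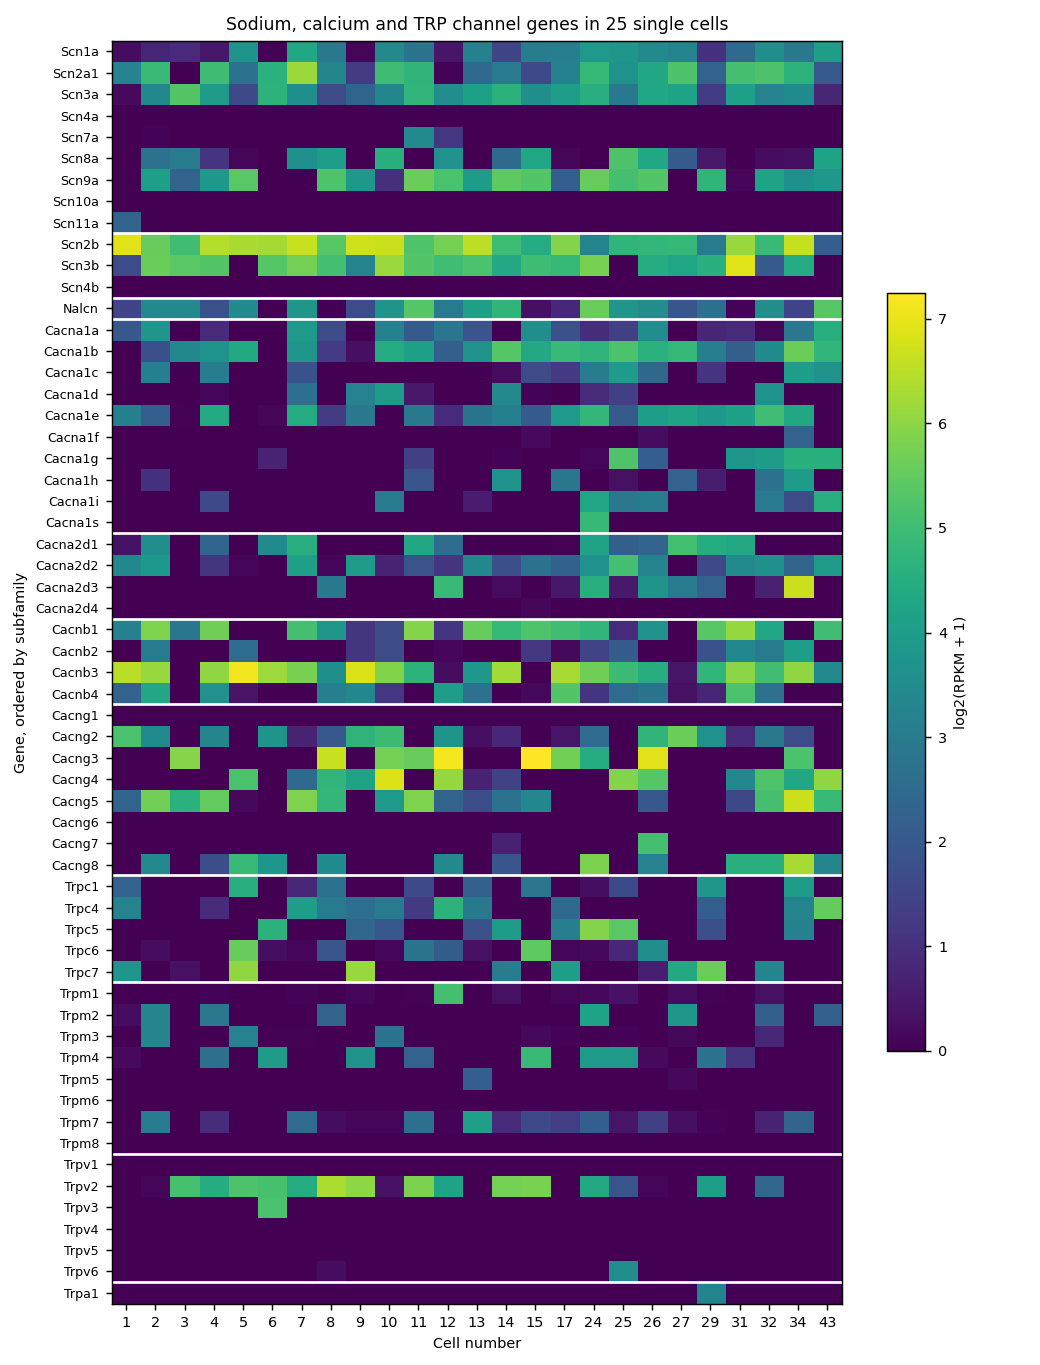
Level of the genes reported here (rows, ordered by subfamily, white lines between subfamilies) in the 25 cells (columns) as log2(RPKM + 1). Sodium channel beta genes and Cacnb3 form bright rows across most cells, and the TRP rows are bright in few cells each.

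Sodium channel alpha genes were counted in 24 of 25 cells, and the subunit that led differed from cell to cell. Scn9a, which encodes Nav1.7, a channel best known from pain-sensing neurons of peripheral nerves, was the most frequent at this level (GRCm38 chromosome 2, 66480080 to 66634962). It was counted in 17 cells (68%, interval 46.5 to 85.1%), with a lowest value of 0, a median of 14.9 and a highest of 47.4 RPKM. The highest values were in cells 11 and 24 (45.8 RPKM), the lowest counted cell had 11.4 RPKM, and the next value down was 3.92 RPKM, so that no cell lay between them. Gm13629, a gene on the opposite strand that shares 180 exon bases with Scn9a, reached 28.7 RPKM in cell 11 and, in cell 34, 11.4 RPKM, and it was at 0 in the other 15 cells with Scn9a. Smart-Seq2 marks no strand, so reads from the shared bases cannot be told apart.

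Scn3a, encoding Nav1.3, which is prominent in the developing brain, was counted in 15 cells (60%, interval 38.7 to 78.9%) and was above 0 in all 25. It ranged from 0.13 to 38.4 RPKM with a median of 11.1 RPKM and was highest in cell 3. Scn2a1, encoding Nav1.2 (Scn2a in current nomenclature), was counted in 13 cells (52%, interval 31.3 to 72.2%), from 0 to 70.3 RPKM with a median of 11.8 RPKM. Cell 7 was far above the others, since the next, cell 27, had 36.1 RPKM. In these 2 cells, and in no other, the glutamate transporter gene Slc17a6 reached 10 RPKM; Scn3a was counted in both of them and Scn9a in neither, which was singled out after the values were seen.

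Scn8a, encoding Nav1.6 of nodes and axon initial segments, was counted in 8 cells (32%, interval 14.9 to 53.5%); the median was 1.13 RPKM, and cell 25 was highest with 36.5 RPKM. Scn1a, encoding Nav1.1, was above 0 in every cell but counted in 6 (24%, interval 9.36 to 45.1%), from 0.05 to 19.4 RPKM with a median of 6.52 RPKM. In 12 cells it lay between 1 and 10 RPKM. At the median depth 10 RPKM of Scn1a corresponds to an estimated 200.2 reads, and its median level to an estimated 140 reads per cell.

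The leading alpha gene, the one with the highest RPKM in a cell at 10 RPKM or more, was Scn9a in 10 cells, Scn2a1 in 8, Scn3a in 4 and Scn8a in 2. Scn2a1 and Scn9a were counted together in 8 cells, 61.5% of the Scn2a1 cells and 47.1% of the Scn9a cells. A cell held 2 alpha genes in 8 cases, 3 in 8, 4 in 3 and 5 in cell 24, while 4 cells held 1. Cell 1 held none, with a summed alpha level of 12.5 RPKM, although it had the highest Scn2b value of all cells.

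Alpha genes of skeletal muscle and sensory ganglia reached the level in no cell, apart from Scn9a. Scn4a of skeletal muscle and Scn10a of sensory neurons were listed at 0 in every cell. Scn11a, also of sensory neurons, was above 0 in cell 1 alone (3.91 RPKM), and the atypical sodium-sensing Scn7a reached 9.93 RPKM in cell 11. The neighbours Scn9a and Scn7a, 38.5 kb apart, thus stood at 17 cells and 0 cells.

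Sodium channel beta genes had the largest share of all subfamilies, 25.2% of the summed RPKM of the 62 genes. These small membrane proteins modulate gating and also act in cell adhesion. Scn2b (chromosome 9, 45117782 to 45130070) was counted in 22 cells (88%, interval 68.8 to 97.5%) and above 0 in all 25, from 3.50 to 121 RPKM with a median of 46.2 RPKM. Scn3b was counted in 19 cells (76%, interval 54.9 to 90.6%); the median was 30.8 RPKM, and cell 31 was highest with 117 RPKM.

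Scn2b and Scn3b shared 17 cells, 77.3% of the Scn2b cells and 89.5% of the Scn3b cells. Over all 25 cells Scn3b was counted in 76% and Scn2b in 88%, so these shares are close to those in all cells. Scn2b had the highest level of the beta genes in 14 cells and Scn3b in 4. Scn4b, which lies 8.33 kb from Scn2b, was listed at 0 in every cell. Cell 43 was the exception among the cells: it held no beta gene, with a summed level of 3.50 RPKM, but 3 alpha genes. Of all cells it had the fewest genes at 10 RPKM, 3843 against a median of 4896, while it held 15 of the 62 channel genes. The part of this low number in the missing beta genes was not tested.

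**Figure D3:**
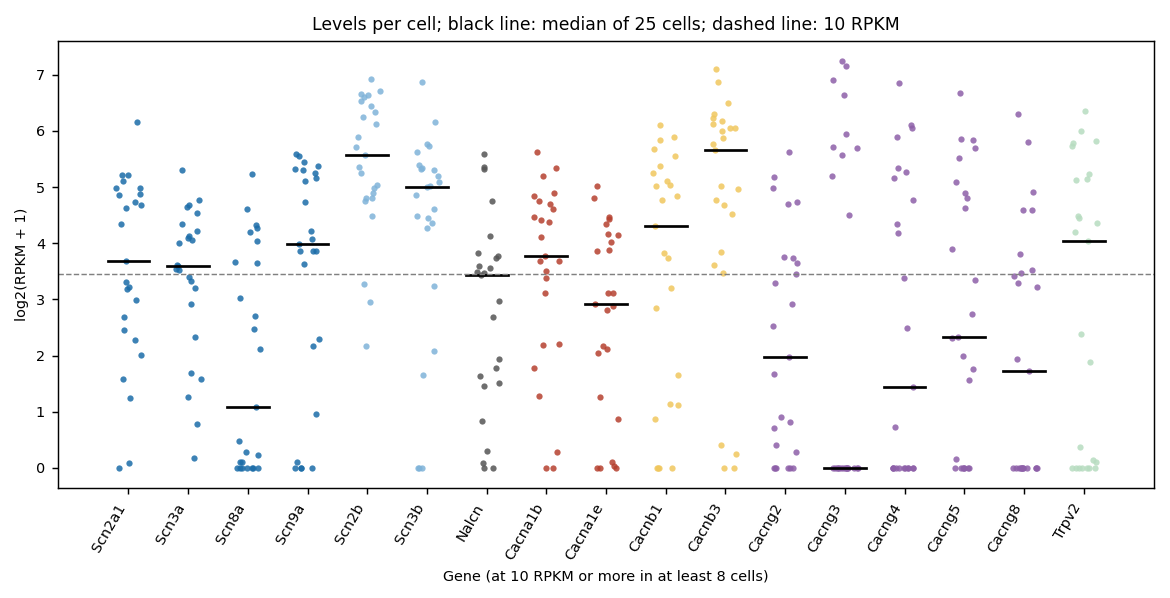
Level of 17 genes counted in at least 8 cells, as log2(RPKM + 1) on the y axis; each point is a cell, coloured by subfamily, the black line is the median of the 25 cells and the dashed line marks 10 RPKM. Scn2b and Cacnb3 have the highest medians (46.2 and 49.6 RPKM), and Cacng3 splits into 10 cells at 21.6 RPKM or more and 15 cells at 0.

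Nalcn, the leak channel (chromosome 14, 123276634 to 123627144), was counted in 12 cells (48%, interval 27.8 to 68.7%) and above 0 in 23. It ranged from 0 to 46.9 RPKM with a median of 9.76 RPKM, just under the level. The high values stood in cells 24, 43, 11 and 14 (25.8 RPKM or more), and the other 8 counted cells lay between 10.15 and 16.5 RPKM. Genes of the other proteins of the leak channel complex differed in frequency. Fam155a was counted in 19 cells at a median of 39.1 RPKM, the scaffold gene Unc80 in 12 cells at 9.93 RPKM and Unc79 in 3 cells at 2.63 RPKM. Of the 12 Nalcn cells, 9 had Fam155a, 7 had Unc80 and 1 had Unc79, and 11 had Fam155a or Unc80. Fam155a or Unc80 was counted in 23 of all 25 cells, so the share among the Nalcn cells is close to that in all cells. Lowering the level to 5 RPKM raised the cells with Nalcn and Unc80 from 7 to 14, and at 20 RPKM 1 was left.

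Of the 9 listed partner genes of sodium channels, 8 were counted in at least 1 cell and 3 in at least 13. Ank2, a membrane scaffold of axons, was counted in 21 cells, from 0.05 to 43.7 RPKM with a median of 16.0 RPKM. The intracellular fibroblast growth factor homologues, which bind the tail of alpha subunits and shift their inactivation, were counted as Fgf13 in 13 cells (median 31.7, highest 142 RPKM in cell 3), Fgf12 in 13 cells (median 11.3 RPKM) and Fgf14 in 9. Fgf12, Fgf13 or Fgf14 was present in 20 cells, 19 of which had an alpha gene. Fgf11 was counted in none. Ank3, the scaffold of the axon initial segment, was counted in 11 cells, Nedd4l in 5 and Sptbn4 in 2.

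Calcium channel alpha1 genes were counted in 19 of 25 cells and were led in most of them by genes of the Cav2 group, channels known for driving transmitter release. Cacna1b, encoding the N-type channel Cav2.2 (chromosome 2, 24603887 to 24763152), was counted in 16 cells (64%, interval 42.5 to 82.0%), from 0 to 48.5 RPKM with a median of 12.6 RPKM. Its high cells were 34 and 14 (39.4 RPKM), and it led the alpha1 genes in 11 cells. Cacna1e, encoding the R-type channel Cav2.3, was counted in 10 cells (40%, interval 21.1 to 61.3%) and above 0 in 22; the median was 6.56 RPKM, and cell 32 was highest with 31.6 RPKM. Of the 10 Cacna1e cells, 8 also had Cacna1b. Cacna1a, encoding the P/Q-type channel Cav2.1, was above 0 in 19 cells but counted in 5 (2, 7, 15, 26 and 43), and cell 43 was highest with 22.5 RPKM.

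The L-type genes were sparse. Cacna1c (Cav1.2) was counted in cells 25, 34 and 43 at 14.7, 15.6 and 12.1 RPKM, and Cacna1d (Cav1.3) in cells 10 and 32 at 14.4 and 12.3 RPKM. No cell had both, and with 3 and 2 cells this says little. Cacna1c, at 21.2 kb of exon, needed an estimated 381 reads to reach the level at the median depth, and Cacna1d shares 589 exon bases with Chdh on the opposite strand, which stood at 0 and 0.47 RPKM in these 2 cells. Retinal Cacna1f was counted in no cell. Cacna1s of skeletal muscle stood at 27.9 RPKM in cell 24 and at 0 in the other 24 cells; the unstranded data cannot separate it from Gm37759, which covers 1309 of its 6550 exon bases on the opposite strand, and of 4 muscle genes Ckm, Myh1 and Tnnt2 were listed at 0 in every cell while Acta1 was counted in 13 cells, up to 95.3 RPKM in cell 17 and at 10.05 RPKM in cell 24.

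Low-voltage, T-type genes, whose channels open near rest and support bursting, were counted in 7 cells (14, 24, 25, 31, 32, 34 and 43). Cacna1g (Cav3.1) was counted in 5 cells, from 13.2 to 37.1 RPKM with the highest value in cell 25 and a median of 0 over all cells, Cacna1h (Cav3.2) in cells 14 and 34, and Cacna1i (Cav3.3) in cells 24 and 43. All 7 cells also had a high-voltage alpha1 gene, out of 19 cells with one. A cell held 1 alpha1 gene in 5 cases, 2 in 7, 3 in 3 and 4 in 2 (cells 24 and 32), and cells 34 and 43 held 5.

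In 6 cells (1, 3, 6, 8, 9 and 12) no alpha1 gene was counted. Their summed alpha1 level was 0.72 to 14.8 RPKM, against 20.2 to 133.9 RPKM in the other 19, and cell 34 was the highest. Since the level itself defines these 6 cells, that gap is a description. The nuclear RNA Malat1 did not exceed 16.6 RPKM in cells 1, 3, 5, 6, 29 and 31, and its lowest value elsewhere was 45.9 RPKM; 3 of these 6 (1, 3 and 6) are among the cells with no alpha1 gene. The cells low in Malat1 held 5 to 13 of the 62 genes (median 11.5), and the other 19 held 9 to 23 (median 13). The part of low Malat1 in these counts was not tested.

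Beta subunits of calcium channels were counted in 23 cells. These proteins bind the first intracellular loop of high-voltage alpha1 subunits and promote their delivery to the membrane. Cacnb3 (chromosome 15, 98630840 to 98644529) was counted in 21 cells (84%, interval 63.9 to 95.5%), from 0 to 137 RPKM, with a median of 49.6 RPKM. Its highest values were in cells 5 and 9 (116 RPKM), and it led in 15 cells. Cacnb1 was counted in 15 cells (60%, interval 38.7 to 78.9%); the median was 18.7 RPKM, and cell 31 was highest with 67.7 RPKM. Of these 15 cells 14 also had Cacnb3. Cacnb4 was counted in cells 2, 4, 12, 17 and 31 (median 1.21 RPKM, highest 38.6 RPKM in cell 17), and Cacnb2 in cell 34 alone at 15.4 RPKM, although it was above 0 in 13 cells. Cacnb4 shares 1433 of its 8963 exon bases with A430018G15Rik on the opposite strand. Cells 3 and 27 held no beta gene. Among the 6 cells with no alpha1 gene, 5 had a calcium channel beta gene.

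Genes for alpha2delta, the extracellular subunit that is bound by gabapentin in some of its forms, were counted in 14 cells. Cacna2d1 was counted in 7 cells (28%, interval 12.1 to 49.4%; highest 32.0 RPKM in cell 27) and Cacna2d2 in 7 (highest 32.5 RPKM in cell 25). The Cacna2d1 cells were 2, 7, 11, 24, 27, 29 and 31 and the Cacna2d2 cells 2, 7, 9, 24, 25, 32 and 43. Cacna2d2 was above 0 in 22 cells (median 3.92 RPKM) and Cacna2d1 in 14 (median 0.29 RPKM). Cacna2d3 was counted in 4 cells (12, 24, 26 and 34), and at 101 RPKM in cell 34 it was far above the next value of 28.9 RPKM in cell 12. Cacna2d4 reached 0.07 RPKM in cell 15 and was 0 elsewhere. Exactly 1 of these genes was counted in 11 cells, 2 in cells 2 and 7, and 3 in cell 24. A high-voltage alpha1 gene, a beta gene and an alpha2delta gene were counted together in 11 cells, and the first and the second of these in 18. At 20 RPKM the full set was met in 4 cells and at any value above 0 in 24.

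The listed regulators of calcium channels included RGK proteins, small GTP-binding proteins that inhibit high-voltage channels. Of the 8 listed genes 5 were counted in at least 1 cell. Rrad was counted in 18 cells at a median of 82.1 RPKM, up to 530.5 RPKM in cell 1, Gem in 17 cells at a median of 32.8 RPKM, up to 298 RPKM in cell 1, and Rem2 in 10 cells, up to 182 RPKM in cell 2. Rrad and Gem shared 11 cells. Rrad was counted in all 6 cells with no alpha1 gene, at 79.95 to 530.5 RPKM, and in 12 of the other 19. Gem was counted in 4 of these 6 cells and in 13 of the other 19. Both comparisons were singled out after the values were seen and were not tested. Stac and Stac2 were each counted in 1 cell, and Rem1, Stac3 and Tmem37 in none.

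Gamma genes were counted in 23 cells and no gene of the group led in more than 6. Cacng2 (stargazin), Cacng3, Cacng4 and Cacng8 encode type I TARPs and Cacng5 and Cacng7 type II TARPs. Cacng3 (chromosome 7, 122670492 to 122769393) was counted in 10 cells (40%, interval 21.1 to 61.3%) and listed at 0 in the other 15. Its 10 values ran from 21.6 RPKM in cell 24 to 150.4 RPKM in cell 15, with 141 RPKM in cell 12 and 119 RPKM in cell 26. No cell thus lay between 0 and 21.6 RPKM, and 6 of the 10 cells (3, 8, 11, 12, 15 and 26) also had Th, the dopamine synthesis gene, which was counted in 8 cells. None of the 5 cells with somatostatin (Sst) had Cacng3. These are counts in the same few cells and were not tested.

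Cacng4 and Cacng5 were likewise counted in 10 cells each. Cacng4 reached 114.9 RPKM in cell 10 and Cacng5 101 RPKM in cell 34, with medians over all cells of 1.70 and 4.02 RPKM. The Cacng4 cells were 5, 8, 9, 10, 12, 25, 26, 32, 34 and 43 and the Cacng5 cells 2, 3, 4, 7, 8, 10, 11, 32, 34 and 43. Each pair among Cacng3, Cacng4 and Cacng5 shared 5 cells, 50% of each. Cacng2 and Cacng8 were counted in 8 cells each, shared cells 6 and 12, and had highest values of 48.1 RPKM (cell 27) and 78.1 RPKM (cell 34) over medians of 2.91 and 2.30 RPKM. Cacng7 was counted in cell 26 alone at 33.4 RPKM. A type I gene was counted in 20 cells and a type II gene in 11, with 8 shared. A cell held 1 gamma gene in 10 cases, 2 in 7, 3 in cell 32 and 4 in cells 8, 10, 12, 26 and 34, and cells 13 and 14 held none.

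The skeletal muscle type gamma genes Cacng1 and Cacng6 were listed at 0 in every cell, although they sit among counted relatives. Cacng1 lies 15.8 kb from Cacng4, in a row with Cacng5 on chromosome 11, and Cacng6 lies 8.55 kb from Cacng8 and 56.0 kb from Cacng7 on chromosome 7.

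**Figure D4:**
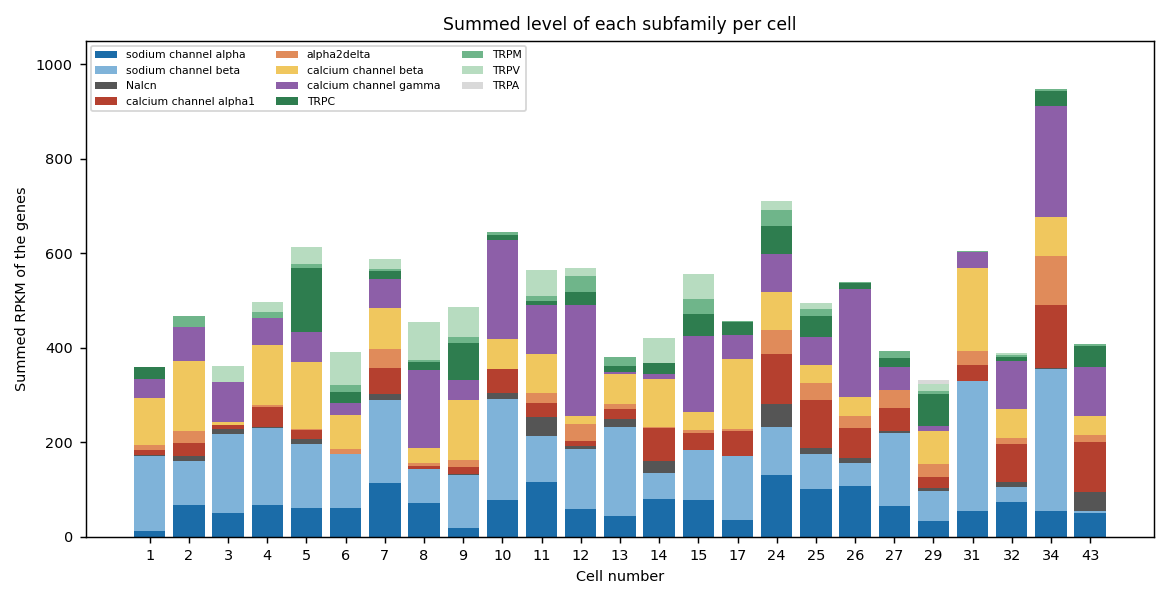
Summed RPKM of the genes of each subfamily (stacked colours, y axis) in each of the 25 cells (x axis). The total runs from 332 RPKM in cell 29 to 948 RPKM in cell 34, and the sodium channel beta and calcium channel gamma genes make up much of the tallest bar.

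TRPC genes were counted in 16 cells and mostly singly. Of these 16 cells, 14 held exactly 1 TRPC gene, cell 29 held 2 (Trpc1 and Trpc7) and cell 5 held 3 (Trpc1, Trpc6 and Trpc7). TRPC proteins form the pore as tetramers, alone or mixed, and are opened downstream of phospholipase C. Trpc7 was counted in 6 cells (24%, interval 9.36 to 45.1%), at 68.3 RPKM in cell 9, 65.4 in cell 5, 48.1 in cell 29, 20.03 in cell 27, 15.3 in cell 17 and 13.1 in cell 1. Trpc5, whose channel is known from arcuate neurons that respond to leptin, was counted in cells 24 (58.4 RPKM), 25 (40.8 RPKM), 6 (24.0 RPKM) and 14 (14.9 RPKM). Trpc4, its close relative, was counted in cells 43 (45.6 RPKM), 12 (24.9 RPKM) and 7 (15.8 RPKM), none of them a Trpc5 cell. With 4 and 3 cells, nothing can be read from the missing overlap.

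Trpc6 was counted in cells 5 (46.5 RPKM), 15 (42.2 RPKM) and 26 (11.0 RPKM). Trpc1, which usually joins channels of other TRPC proteins, was counted in cells 5 (22.9 RPKM), 29 (13.3 RPKM) and 34 (15.03 RPKM). The medians over all cells were 0 for Trpc1, Trpc5 and Trpc7, 0.09 RPKM for Trpc6 and 0.84 RPKM for Trpc4, and each of these genes was at 0 in at least 11 cells. The number of TRPC genes per cell depended on the level: at 5 RPKM 12 cells held exactly 1 and 9 held more, at 1 RPKM 7 and 14, and at any value above 0, 6 and 18.

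Trpv2 was the most frequent of the Trpa, Trpc, Trpm and Trpv genes, counted in 13 cells (52%, interval 31.3 to 72.2%). It encodes a channel first described as a sensor of noxious heat and since studied in many cells, including neurons of the hypothalamus. Its levels ran from 0 to 80.6 RPKM with a median of 15.4 RPKM. Cells 8 and 9 (63.2 RPKM) were highest, and the counted cells were well separated, since the lowest had 15.4 RPKM and the highest of the other 12 cells had 4.23 RPKM. The other TRPV genes were Trpv3, at 34.5 RPKM in cell 6 and 0 elsewhere, and Trpv6, at 10.8 RPKM in cell 25. Trpv1, the capsaicin receptor gene, Trpv4 and Trpv5 were listed at 0 in every cell. Trpa1, the irritant receptor gene, reached 8.62 RPKM in cell 29 and was 0 elsewhere.

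Among TRPM genes, Trpm4, which encodes a channel opened by calcium inside the cell, was counted in 5 cells (6, 9, 15, 24 and 25), and cell 15 was highest with 28.8 RPKM. Its median was 0. Of these 5 cells 4 also had Trpv2, an overlap singled out after the values were seen. Trpm2 was counted in cells 24 and 27 at 17.3 and 13.3 RPKM, Trpm7 in cell 13 at 16.0 RPKM and Trpm1 in cell 12 at 33.5 RPKM. Trpm7 was above 0 in 19 cells, and Trpm1 stayed at 0.29 RPKM or less outside cell 12. Trpm3 (highest 8.79 RPKM in cell 2) and Trpm5 (highest 3.45 RPKM in cell 13) were counted in none. Trpm6 and the cold receptor gene Trpm8 were listed at 0 throughout. Taking the Trpa, Trpc, Trpm and Trpv genes together, 21 cells held at least 1, and cells 2, 10, 31 and 32 held none.

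Channels of intracellular stores and endolysosomes were listed alongside. Mcoln1, the TRP channel of lysosomes, was counted in 21 cells, with its median at 104 RPKM and its top value of 201 RPKM in cell 10, a higher median level than that of any of the 62 genes. Pkd2 was counted in 4 cells, Tpcn1 in 3 and Tpcn2 in 1, and Mcoln2, Mcoln3, Pkd2l1 and Pkd2l2 in none. Of the 11 listed genes of calcium stores and store-operated entry, 9 were counted in at least 1 cell and 0 in at least 13. Stim2 was counted in 12 cells (median 1.83 RPKM), Orai2 in 11 (4.50 RPKM) and Stim1 in 9 (4.74 RPKM), and Ryr2 in 3. Orai3 was counted in 6 cells, Orai1 in 3, Ryr3 in 2 and Itpr1 and Itpr2 in 1 each, and Ryr1 and Itpr3 in none.

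In terms of level, the gene with the highest RPKM of the 62 in a cell was never a pore-forming sodium or calcium channel subunit. It was a sodium channel beta gene in 9 cells, a gamma gene in 8, a calcium channel beta gene in 6 and a TRPC gene in cells 24 (Trpc5) and 29 (Trpc7). The summed level of a subfamily per cell had a median of 115 RPKM for sodium channel beta (3.50 to 301 RPKM), 71.7 RPKM for calcium channel beta (0.57 to 175 RPKM), 65.5 RPKM for sodium channel alpha (12.5 to 129 RPKM) and 64.0 RPKM for gamma genes (3.25 to 237 RPKM). It was 36.3 RPKM for alpha1 (0.72 to 134 RPKM), 14.3 RPKM for alpha2delta (0 to 105 RPKM) and 42.4 RPKM for the Trpa, Trpc, Trpm and Trpv genes together (1.16 to 180 RPKM). Across the 62 genes the number of cells at 10 RPKM had r = -0.03 with log2 exon length, a value across genes, which are not independent replicates.

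Pairs of these genes varied together weakly for the most part. For the 18 genes counted in at least 8 cells, Pearson's r of log2(RPKM + 1) over the 25 cells had a median of 0.02 over 153 pairs, from -0.46 (Scn8a with Cacnb3) to 0.63. The 3 highest pairs were Scn3a with Scn3b (0.63), Scn2a1 with Cacna1e (0.51) and Scn2a1 with Cacnb3 (0.49). These are descriptions over cells of 1 pool that also differ in depth, of which r with log2 reads ran from -0.45 for Cacng4 to 0.28 for Cacnb1.

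A few channel genes can be set beside the genes that mark overlapping subsets of these cells, again as counts with no test, picked after the values were seen. The subsets are not separate, so their counts rest in part on the same cells. Cells 8, 12, 26 and 43 had both Th and Pomc, and cells 9, 14, 29, 32 and 43 had both Glp1r and Pomc. Of the 8 Th cells, 7 had Scn2b, 6 Scn9a, 6 Cacng3, 5 Scn8a and 5 Cacnb3, 4 had any alpha1 gene, and 1 (cell 43) had an L-type gene. The Th cells with no alpha1 gene were 1, 3, 8 and 12, of which 1 and 3 were low in Malat1. Of the 5 Sst cells (1, 6, 9, 25 and 31), all had Scn2b and Cacnb3, 3 had Trpm4, and 2 (25 and 31) had an alpha1 gene. Among these Sst cells, 1, 6 and 31 were low in Malat1 and cell 9 had the lowest depth of all cells. Of the 10 cells with the GLP-1 receptor gene Glp1r, all 10 had Cacnb3 and 9 had Scn9a, which were themselves counted in 21 and 17 of the 25 cells. Of the 10 Pomc cells, 9 had Scn9a and 7 had Cacng4. Over all 25 cells, Scn2b was counted in 22, an alpha1 gene in 19, and Cacng3 and Cacng4 in 10 each. Scn8a was counted in 8, and an L-type gene and Trpm4 in 5 each.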

How the data were processed

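Polyadenylated RNA of 25 hand-picked cells was sequenced with Smart-Seq2 and Nextera XT, per the labels' protocols. The authors deposited 1 table under a name that speaks of counts, but its values act as RPKM: they are decimals, and low values times exon length fall on steps of whole reads. Tools named in the submitters' processing notes are featureCounts 1.4.6, TopHat2 2.0.14, SAMtools 0.1.19, Picard 2.5.0 and bcl2fastq, beside the builds GRCm38 and mm10, and no role is stated. Gene annotation and read length were not given in the sources used here. Of 33082 rows, 26 with symbols turned into dates were left out, and 755 repeated symbols were represented by their row of largest total, leaving 30903 symbols; all 25 value columns were used. The GENCODE M21 annotation of GRCm38 supplied exon lengths (22715 symbols, 73.5%, with all 62 channel genes among them), positions and coding sequences. Scn2a1 was matched to Scn2a through RefSeq synonyms.

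Depth was estimated from the steps of 1, 2 and 3 reads among low values. On data simulated for 22715 genes with 12 set depths the error never exceeded 0.363%, but with lengths known exactly. RPKM times exon length summed to 1.38 to 1.46 times the expected total per cell, so lengths or read totals differ from the authors', and read numbers are estimates of unknown error. Exons of 16 of the 62 genes overlap another gene, by 12 to 1433 bases.

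The channel genes and all lists were chosen with earlier results of these data known. A few genes are in the totals but are not reported here; every other channel gene was named; up to 5 per subfamily, by number of cells at 10 RPKM and then mean level, were given with range and median, as were the leading gene of each cell and the 3 pairs with the highest r. In partner lists up to 3 genes in most cells were given with values. The cells set beside Th, Sst, Slc17a6, Glp1r, Pomc, Rrad or Gem, and the shared cells of gene pairs, were singled out with the values in view. No model was fitted and no test made. Calculations used Python 3.11.15, pandas 2.3.3, numpy 2.4.6 and scipy 1.17.1. Alternatives changed the level, the scaling, repeated symbols, the pseudocount, the filter and the cells used.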

Additional observations from a re-analysis of the deposited data

How the results depend on the processing

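The counts depend on the level at which a gene is called. At 1, 5 and 20 RPKM and at any value above 0, a cell held a median of 22, 17, 8 and 29 of the genes, against 13 at 10 RPKM, and 18 after each cell was rescaled to a common sum (TPM). Genes in most cells numbered 21 at 1 RPKM, 4 at 20 RPKM and 26 above 0, against 10. Cells with a high-voltage alpha1, a beta and an alpha2delta gene numbered 20, 4 and 24 under these levels and 17 after rescaling, against 11. Cells with Nalcn and Unc80 numbered 20, 14, 1 and 23 at 1, 5 and 20 RPKM and above 0, and 14 after rescaling, against 7. Rescaling also moved the median summed levels, by its construction, to 164 (sodium channel alpha), 282 (sodium channel beta), 95.3 (alpha1), 196 (calcium channel beta), 167 (gamma) and 114 (TRP). Which sodium channel alpha gene was most frequent changed with the level: Scn2a1 and Scn3a at 1 RPKM (23 cells each), Scn1a and Scn3a above 0 (25 each), Scn3a at 5 RPKM (19 cells), Scn2a1 at 20 RPKM (11 cells) and after rescaling (20 cells), and Scn9a at 10 RPKM. Scn2b, Cacna1b and Cacnb3 led their subfamilies under every level and scaling tried. Trpv2 led the TRP genes except above 0, where Trpm7 was in 19 cells and Trpv2 in 18. The leading gamma gene changed with the level. Cacng3, Cacng4 and Cacng5 tied at 10 RPKM, Cacng5 led at 1 and 5 RPKM (17 and 12 cells), Cacng3 at 20 RPKM (10 cells) and Cacng2 above 0 (19 cells). After rescaling Cacng2, Cacng4 and Cacng5 tied (12 cells). Without the 6 cells low in Malat1, 38 of the 44 counted genes stayed within 1.5 times their number of cells; among the rest Cacng2 and Cacng8 moved from 8 to 5, Trpc1 from 3 to 1, Trpc7 from 6 to 3 and Trpv3 from 1 to 0. Without the shallowest cell all 44 stayed within 1.5 times, but leaving out 1 cell can lower a count by no more than 1. Adding the rows of repeated symbols could change none of the 44, since each of the 62 genes is on a single row. The median r over pairs was 0.01 to 0.04 under the other pseudocounts, filter, scaling and cells, Scn3a with Scn3b 0.57 to 0.63 and Scn2a1 with Cacna1e 0.45 to 0.58. Scn2a1 with Cacnb3 ran from 0.32 (pseudocount 10 RPKM) to 0.61 (pseudocount 0.1 RPKM), and the cause was not tested. No paired analysis was possible because the cells form 1 group. With 25 cells a count of 0 limits little: the exact upper bound for 0 of 25 cells is 13.7%. That bound rests on the number of cells alone and does not cover transcripts missed within a cell.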
